A study of Mus musculus with 8 samples.

Results

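The genes studied here encode respiratory complexes II to V, the part of the mitochondrial electron transport chain that follows and parallels complex I, together with ATP synthase. The rule that takes them reads gene symbols: protein-coding nuclear genes whose symbol starts with Sdh followed by a letter from a to d, with Uqcr, with Cox4 to Cox8 or with Atp5, plus Cycs and Cyc1. This gave 53 of 21883 protein-coding nuclear genes. They comprise 4 subunits of complex II, 4 complex II assembly factors that the symbol rule takes in (Sdhaf1 to Sdhaf4), 9 genes of complex III, Cycs for cytochrome c, 18 genes of complex IV and 17 of complex V. Of the complex IV genes, 7 encode isoforms restricted to certain tissues. The measurement was ATAC-seq, in which a transposase cuts and tags open DNA, so that the count over a genomic region reports its accessibility. The cells were conventional type 1 dendritic cells (cDC1s), which present captured antigen to CD8 T cells. They came by sorting from tumours of B16-OVA, a melanoma line of mouse origin that carries ovalbumin, grown in mice labelled wild type. The groups were 4 libraries made 7 days after tumour inoculation (day 7) and 4 made after 21 days (day 21), and the comparison asks how cDC1 chromatin differs between an early and a late tumour. The labels give no age, sorting gate or number of animals per library, nor whether the libraries of a day were separate animals, so the p-values describe the scatter of these 8 libraries, which may be technical.

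Library totals were between 9440223 and 16063736 counts at day 7, and between 14021151 and 27737040 at day 21. A gene's value is the sum of counts over all regions within 1000 bp of either annotated end, in counts per 1000000 of the scaled library total (CPM), and a mean is printed with the SD of its 4 libraries (n = 4). A fall in such bulk counts can be fewer cells with an open site or a less open site in each cell, which cannot be told apart. The cDC1 markers were open at the ends of 9 of 10 listed genes (Itgae had no region there), with a summed level of 358 to 389 CPM at day 7 and 379 to 398 at day 21. Among these Irf8 fell and Naaa and Wdfy4 rose. Of the marker lists of other cells described here, 3 had summed levels that did not overlap between the days. For macrophages and monocytes, 4 of 10 rose and the sum went from 76 to 78.8 CPM up to 83.7 to 95.7 CPM. The plasmacytoid dendritic cell list (3 of 4 genes with a region, Ly6d without; 2 fell and 1 rose) went from 72.7 to 79 CPM down to 66.2 to 69.8. The stromal and endothelial list (4 of 5, Col1a2 without; 1 of 3 tested fell) went from 10.4 to 13.7 CPM down to 8.78 to 9.67. Sums of the T and NK cell list (Lck and Ncr1 without a region), the neutrophil list (S100a8, Csf3r and Mpo without) and the melanoma list (Tyr without) overlapped between the days. Within them genes moved in opposite directions: of 6 tested T and NK cell markers Cd2 (−0.80 ± 0.21 on the log2 scale) and Prf1 (−1.05 ± 0.29) fell and Klrb1c (0.51 ± 0.11) rose, and of 4 melanoma markers Sox10 (−1.30 ± 0.46) fell and Mitf (0.20 ± 0.07) rose. Neither of the 2 neutrophil markers tested passed. The part of these cells in the results below was not tested.

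Complex II oxidises succinate in the citric acid cycle and passes the electrons to ubiquinone. Complex III moves them on to cytochrome c, a small soluble carrier, and complex IV hands them to oxygen. Complexes III and IV pump protons, and ATP synthase (complex V) lets the protons flow back through a rotating ring in the membrane to drive ATP formation in its F1 head. All but a few subunits are encoded in the nucleus, from promoters that are open in most cell types and are textbook targets of NRF1, of the ETS factor GABPA, of YY1 and of SP1. In dendritic cells, respiration is known to change with activation.

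Promoter sequences are shown because most members were open over their annotated start. RefSeq (build GRCm38.p6, the assembly also called mm10) gave a promoter of 300 bases, 250 before and 50 after the start site, for 41 of the 53 genes, and 38 of the 41 had a region within 1000 bp of the annotated start. The 12 without an entry were Atp5a1, Atp5mpl, Cox4i1, Cox4i2, Cox6a2, Cox6c, Cox8c, Cyc1, Sdhc, Uqcrb, Uqcrc2 and Uqcrq. The first pair below are the promoters of the genes with the largest called falls (Sdhaf4 and Cox6b2). The next pair belong to the genes with the highest counts that did not pass the test (Atp5b and Uqcrh). Cycs and Atp5j were added after their values were seen, the first as a textbook NRF1 and CREB target, the second because its start region is shared with Gabpa. They lie at chr1:24005591-24005890, minus strand (Sdhaf4), chr7:4753045-4753344, minus strand (Cox6b2), chr10:128083057-128083356, plus strand (Atp5b), chr4:116075021-116075320, minus strand (Uqcrh), chr6:50566520-50566819, minus strand (Cycs) and chr16:84835576-84835875, minus strand (Atp5j). Each is written 5′ to 3′ along the gene, base 251 being the start site of the promoter entry, and capitals mark matches to the motifs named in the next paragraph. For Atp5j that start site lies inside the gene, not at the annotated end (84835857) that the windows used.
Sdhaf4: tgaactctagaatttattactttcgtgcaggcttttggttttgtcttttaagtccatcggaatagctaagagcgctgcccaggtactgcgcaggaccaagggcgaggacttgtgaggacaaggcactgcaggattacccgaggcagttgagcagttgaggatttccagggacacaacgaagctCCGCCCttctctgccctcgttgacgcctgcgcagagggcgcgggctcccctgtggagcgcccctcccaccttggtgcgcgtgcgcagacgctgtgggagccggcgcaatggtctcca
Cox6b2: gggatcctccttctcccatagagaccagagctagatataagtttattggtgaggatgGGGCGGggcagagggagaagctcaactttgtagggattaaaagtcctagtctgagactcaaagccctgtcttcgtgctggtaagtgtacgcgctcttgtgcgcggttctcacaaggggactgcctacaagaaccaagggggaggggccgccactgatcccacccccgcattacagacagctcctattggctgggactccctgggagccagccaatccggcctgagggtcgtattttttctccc
Atp5b: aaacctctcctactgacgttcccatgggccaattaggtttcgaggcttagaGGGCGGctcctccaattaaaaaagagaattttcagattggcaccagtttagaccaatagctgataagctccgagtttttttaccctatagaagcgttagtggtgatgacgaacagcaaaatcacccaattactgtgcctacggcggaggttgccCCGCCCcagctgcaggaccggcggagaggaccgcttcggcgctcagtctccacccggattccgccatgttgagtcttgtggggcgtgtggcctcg
Uqcrh: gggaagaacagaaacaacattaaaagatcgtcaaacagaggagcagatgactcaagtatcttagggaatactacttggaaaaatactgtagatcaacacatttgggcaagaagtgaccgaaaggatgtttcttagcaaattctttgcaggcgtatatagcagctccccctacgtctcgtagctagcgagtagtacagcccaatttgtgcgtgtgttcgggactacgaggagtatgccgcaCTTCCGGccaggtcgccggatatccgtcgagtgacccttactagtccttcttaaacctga
Cycs: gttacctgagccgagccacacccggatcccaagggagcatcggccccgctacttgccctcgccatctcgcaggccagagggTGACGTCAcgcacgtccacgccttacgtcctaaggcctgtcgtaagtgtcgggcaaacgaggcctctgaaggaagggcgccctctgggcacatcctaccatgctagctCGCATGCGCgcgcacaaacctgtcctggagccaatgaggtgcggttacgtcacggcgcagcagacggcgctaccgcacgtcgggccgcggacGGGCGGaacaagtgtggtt
Atp5j: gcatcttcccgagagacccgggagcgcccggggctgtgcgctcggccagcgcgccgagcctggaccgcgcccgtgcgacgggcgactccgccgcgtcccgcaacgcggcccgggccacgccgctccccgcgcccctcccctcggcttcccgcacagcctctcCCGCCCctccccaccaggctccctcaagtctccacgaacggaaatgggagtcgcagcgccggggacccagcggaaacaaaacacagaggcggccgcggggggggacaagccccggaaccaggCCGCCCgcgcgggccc

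The motifs were searched as exact letters on both strands, and the matches printed do not overlap one another. GCGCATGCG, the core of the NRF1 site, stood in 7 of 41 member promoters (17.1%), against 1.75% of all 32851 RefSeq mouse promoters of that length. These 7 were Atp5g2, Atp5k, Atp5l, Cox6a1, Cycs, Uqcr11 and Uqcrc1. Each member has a single promoter here, the entry nearest its annotated start. The 32851 are all entries, not reduced to a single promoter per gene and not limited to open or protein-coding starts. CCGGAAG, the ETS core that GABPA reads, stood in 15 (36.6%), against 8.86%, among them Uqcrh. GGGCGG (SP1) stood in 19 (46.3%), against 35.7%. AAGATGGCG (YY1) was in 1, Atp5j2 (2.44% against 1.4%), TGACGTCA (CREB) in 2, Cycs and Uqcrfs1 (4.88% against 1.79%), and TATAAA, a core promoter box, in 5 (12.2% against 13.6%). In Cycs the CREB match began at −169 relative to the start site and the NRF1 match at −61. Of the member promoters whose gene fell (14), 4 held the NRF1 letters, 6 the ETS letters and 10 the SP1 letters. Of those that did not pass (24), the counts were 3, 9 and 8. Median GC content was 57.0% in member promoters and 52.7% in all promoters. A match is a run of letters and was not tied to binding in these cells.

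By day 21 accessibility had fallen at the ends of 19 of the 48 members with a region there, and 29 did not pass. None rose at an edgeR adjusted p under 0.05: 2 were higher at an unadjusted p under 0.05 (Cox7a2l and Cox4i2), and DESeq2 gave 0 higher and 18 lower. The falls were small, from −0.19 (Atp5j) to −0.52 (Sdhaf4) on the log2 scale. By complex, 1 of 4 genes fell in complex II (Sdha), 1 of 9 in complex III (Uqcrq), 6 of 14 in complex IV and 7 of 16 in complex V. Cycs itself and 3 of the 4 complex II assembly factors fell too. The share in complex II (25.0%) was near that of all gene ends given next, and the share in complex III (11.1%) was under it. Losses were also frequent elsewhere: 24.6% of all 13569 gene ends tested were lower and 6.71% higher. Among the 7652 other gene ends of like level (from the 10th to the 90th percentile of the members' mean CPM) 28.0% were lower and 7.32% higher. The members' share was 39.6% lower, and their median log2 fold change of −0.14 stood beside −0.09 over all gene ends and −0.10 over those of like level. All 48 members with a region passed the filter on low counts. The other 5 (Atp5g1, Cox6a2, Cox7b2, Cox8b and Cox8c) had no region at either end and no value.

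**Figure D1:**
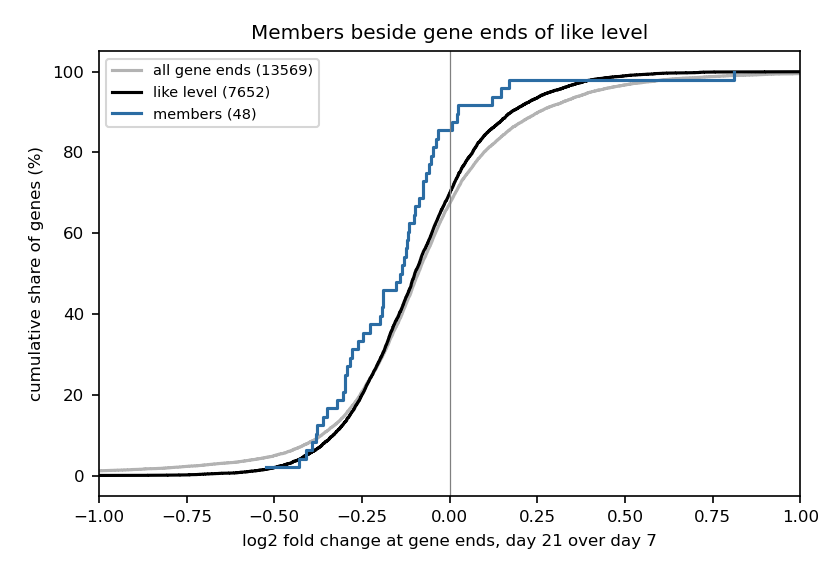
Cumulative share of genes (%, y axis) against the log2 fold change at gene ends, day 21 over day 7 (x axis), for the 48 members, 7652 gene ends of like level and all 13569 gene ends. The members' curve lies to the left of both others around its median of −0.14, and it ends at Cox4i2 on the right.

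How many members were called, and the median over all gene ends, depended on the scaling. The members' median was below that of all gene ends under each scaling. Gene ends took 38.6% ± 0.602 of a day 7 library's counts, against 36.4% ± 0.286 on day 21. The 2 scalings that bring the median gene end close to 0 gave fewer calls. With trended offsets, which follow each library's drift of log ratios with level, 12 members were lower and 2 higher, with a median of −0.04 against −0.00443 over all gene ends, of which 12.1% were lower and 12.0% higher. With library sizes taken from gene ends alone, 13 were lower and 2 higher (median −0.05 against −0.00144), where 12.2% of all gene ends were lower and 12.2% higher. The 2 higher genes were Cox7a2l and Uqcrb in both. All 12 and all 13 lower members were among the 19, and 11 were called in every alternative run that gave them a value: Sdha, Sdhaf1, Sdhaf2, Sdhaf4, Cycs, Cox4i1, Cox6b2, Atp5a1, Atp5g2, Atp5mpl and Atp5pb. Counted as a share of gene-end counts only, the members held 0.425% to 0.433% at day 7 and 0.403% to 0.409% at day 21, with no overlap.

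**Figure D2:**
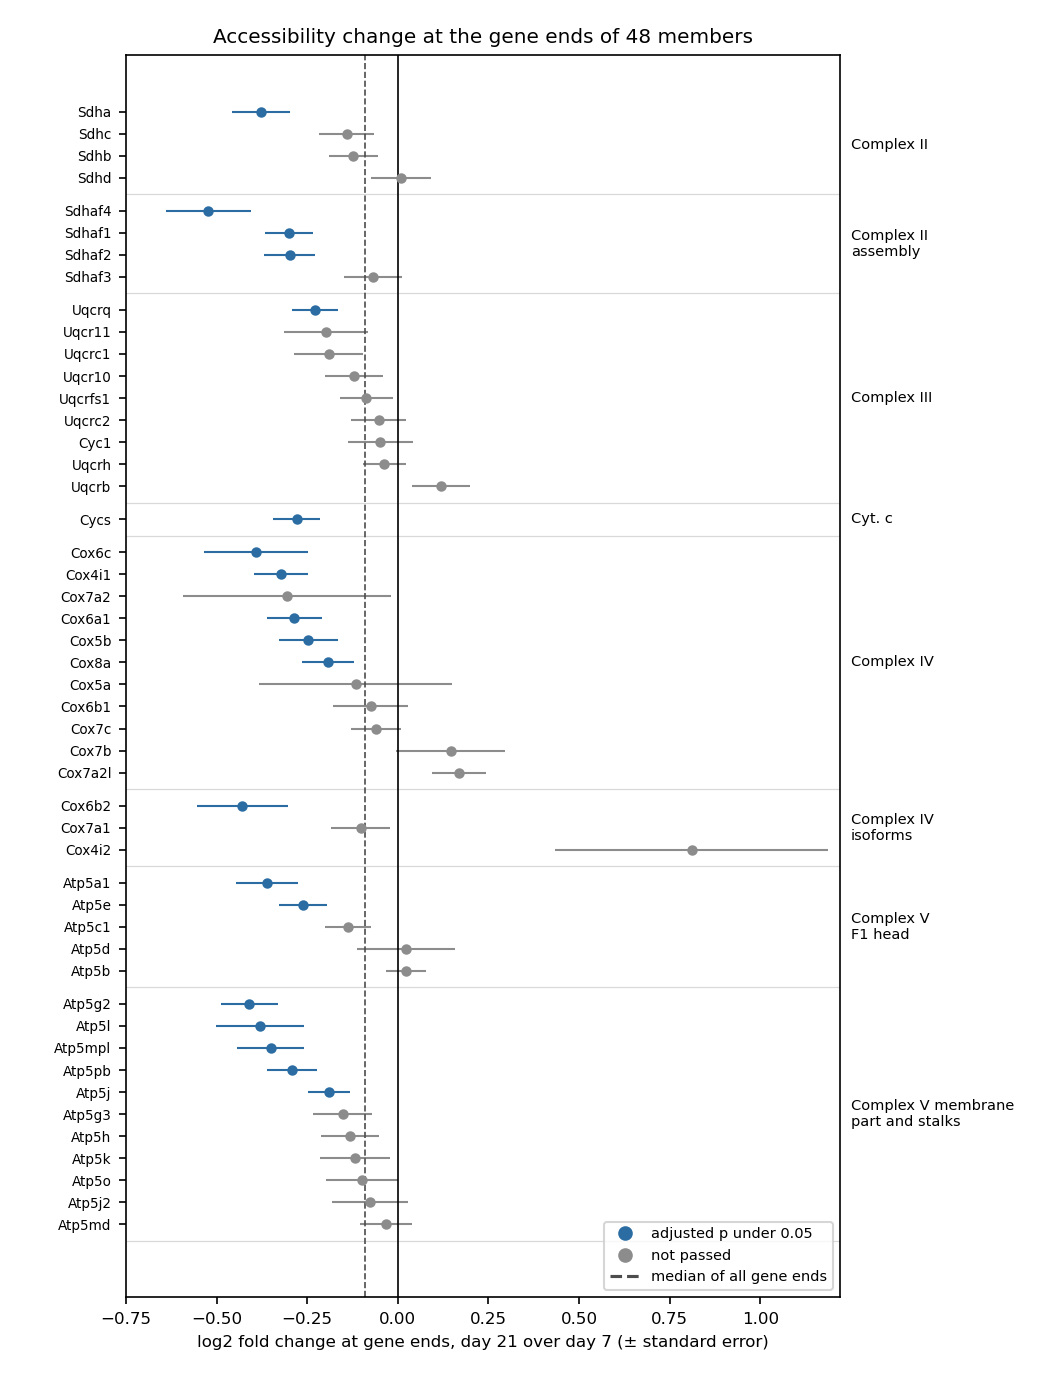
Log2 fold change at gene ends, day 21 over day 7, ± standard error (x axis) for each of 48 members grouped by role (y axis), with a dashed line at the median of all gene ends, −0.09. Blue points, the 19 genes with an edgeR adjusted p under 0.05, all lie left of the dashed line, and of the 7 genes right of 0, none of which passed, Cox4i2, Cox7a2l, Cox7b and Uqcrb lie farthest out.

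Summed over their genes, some complexes had days that did not overlap and others had days that did. Differences between complexes were not tested. Complex V summed to 600, 644, 625 and 608 CPM at day 7 and 540, 552, 578 and 536 CPM at day 21 (619 ± 19.7 and 551 ± 19.1, log2 ratio −0.17). Complex IV summed to 322, 328, 319 and 308 CPM at day 7 and 274, 296, 298 and 286 CPM at day 21 (319 ± 8.15 and 289 ± 11, log2 ratio −0.15). In both, every day 21 library lay below every day 7 library. The share of counts at all gene ends separated likewise, from 37.9% to 39.3% at day 7 to 36.1% to 36.6% at day 21. The complex II assembly factors summed to 151, 161, 166 and 166 CPM at day 7 and 127, 133, 136 and 138 CPM at day 21 (161 ± 6.93 and 133 ± 4.46, log2 ratio −0.27). These too did not overlap. The 4 subunits of complex II summed to 149, 142, 155 and 159 CPM at day 7 and 132, 148, 136 and 132 CPM at day 21 (151 ± 7.4 and 137 ± 7.72, log2 ratio −0.14). Complex III summed to 332, 350, 336 and 335 CPM at day 7 and 312, 333, 324 and 302 CPM at day 21 (338 ± 7.81 and 318 ± 13.6, log2 ratio −0.09). Here the libraries of the days overlapped, by replicate 2 of day 21 in each case, and the complex III sum changed sign with trended offsets (log2 ratio 0.01). With the same offsets the log2 ratios were −0.07 for complex V, −0.05 for complex IV, −0.04 for complex II and −0.17 for the assembly factors. Sums over chosen genes were given no test.

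**Figure D3:**
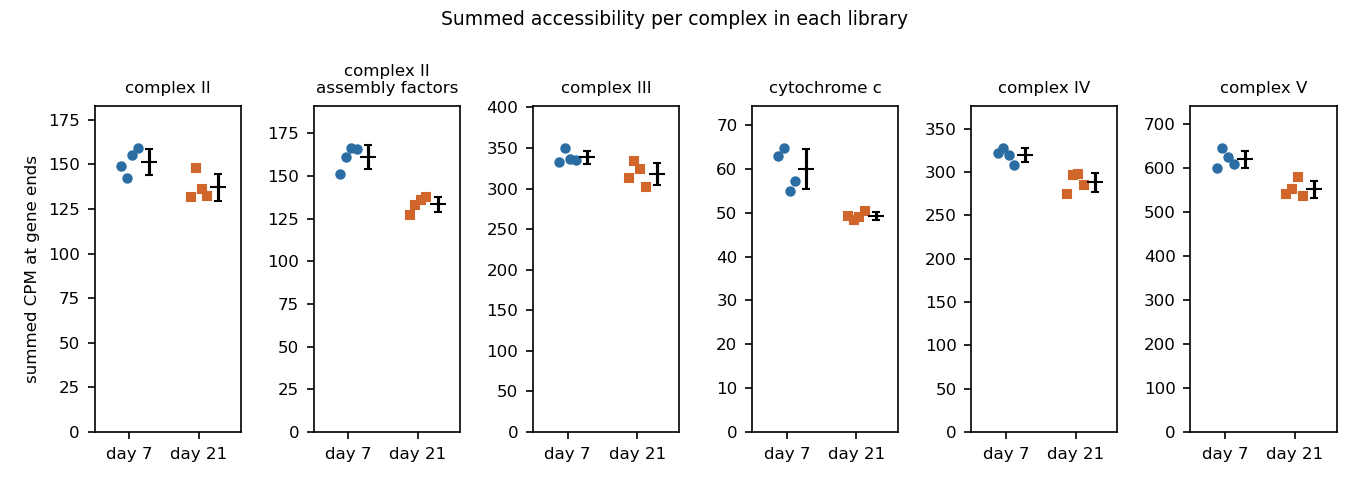
Summed CPM at gene ends (y axis, from 0) in each day 7 library (blue circles) and each day 21 library (orange squares) for each complex, with mean ± SD in black. The day 21 squares lie below all day 7 circles for the assembly factors, cytochrome c, complex IV and complex V, and overlap them for complexes II and III.

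In complex II the catalytic subunit Sdha, the flavoprotein that oxidises succinate, fell and the other 3 subunits did not pass. Its ends held 31.6, 30.8, 32.9 and 33.6 CPM in the day 7 libraries (replicates 1 to 4) and 25.3, 25.5, 24.3 and 24.3 CPM in the day 21 libraries, from 32.2 ± 1.24 to 24.9 ± 0.651 CPM (−0.38 ± 0.08 on the log2 scale, edgeR adjusted p = 2.09e-04). All 4 day 21 libraries lay below all 4 day 7 libraries, as they did at 20.6% of all gene ends and at 21 of the 48 members. Sdha shares its start region with Ccdc127, so the value stands for both genes. Sdhc, one of the membrane anchors that bind ubiquinone, had 38.2, 33.1, 39 and 37.9 CPM at day 7 and 31.2, 36.3, 34.2 and 33.1 CPM at day 21 (−0.14 ± 0.08 on the log2 scale, edgeR adjusted p = 0.149). Sdhd, the other anchor, whose region is shared with Nkapd1 and Timm8b, had 28.5, 31.2, 37 and 32.4 CPM at day 7 and 29.2, 37.8, 32.5 and 30.5 CPM at day 21 (0.01 ± 0.08 on the log2 scale, edgeR adjusted p = 0.955). In both genes the libraries of the days overlapped. Sdhb, the iron-sulfur subunit, stood at 49.9 ± 4.02 to 46.1 ± 1.77 CPM (−0.12 ± 0.07 on the log2 scale, edgeR adjusted p = 0.163).

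The assembly factors of complex II, which are not part of the finished enzyme, were called at 3 of 4 genes: Sdhaf1, Sdhaf2 and Sdhaf4 fell and Sdhaf3 did not pass. Sdhaf4, which binds the flavin-loaded Sdha, had the largest fall among the called members. It held 13.3, 14.7, 16 and 17.3 CPM at day 7 and 11.4, 11.8, 9.78 and 10 CPM at day 21 (−0.52 ± 0.12 on the log2 scale, edgeR adjusted p = 4.09e-04). The lowest day 7 library was above the highest day 21 library. Sdhaf1, which helps insert iron-sulfur clusters into Sdhb, held 63.8, 61.3, 74.1 and 69.5 CPM at day 7 and 49, 50.1, 59.8 and 59.1 CPM at day 21 (−0.30 ± 0.07 on the log2 scale, edgeR adjusted p = 3.79e-04). Day 21 replicates 3 and 4 were closer to day 7 than replicates 1 and 2, without overlap. Sdhaf2, which attaches the flavin to Sdha and shares its start region with Cpsf7, went from 48.1 ± 3.7 to 39 ± 1.6 CPM (−0.30 ± 0.07 on the log2 scale, edgeR adjusted p = 7.38e-04). Sdhaf3, a partner of Sdhaf1, had 29.1, 32.8, 31.4 and 29.5 CPM at day 7 and 29.6, 30.2, 28.1 and 28.9 CPM at day 21 (−0.07 ± 0.08 on the log2 scale, edgeR adjusted p = 0.544), and its libraries overlapped.

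In complex III 1 of 9 genes was lower: Uqcrq, a small subunit near the ubiquinone site. It held 58.8, 67.6, 63.6 and 67.5 CPM at day 7 and 54.3, 58.2, 54.2 and 53.2 CPM at day 21 (−0.23 ± 0.06 on the log2 scale, edgeR adjusted p = 0.00364), with no overlap, in a region shared with Gdf9. This call was lost with trended offsets (0.0822) and with gene-end library sizes (0.0587). Uqcrc1, a core subunit, had 22.6, 27.4, 23.8 and 22.7 CPM at day 7 and 19.3, 25, 20.9 and 19.2 CPM at day 21 (−0.19 ± 0.09 on the log2 scale, edgeR adjusted p = 0.114). Day 21 replicate 2 was the highest of its day and overlapped day 7, and without it the adjusted p was 0.0292. Uqcrh, the hinge protein that contacts cytochrome c1, had the third highest summed count among the members (51.2 CPM per kilobase at day 7) and held 67.2, 66.5, 72.2 and 67.3 CPM at day 7 and 66.4, 67.8, 67.1 and 65 CPM at day 21 (−0.04 ± 0.06 on the log2 scale, edgeR adjusted p = 0.667). Its region is shared with Lrrc41. Cyc1, cytochrome c1 itself, held 26.2, 26, 21.5 and 23.4 CPM at day 7 and 23.6, 22.7, 25.3 and 22.3 CPM at day 21 (−0.05 ± 0.09 on the log2 scale, edgeR adjusted p = 0.72), and both genes had overlapping libraries. Uqcrb, which also lines the ubiquinone site, was higher in mean at day 21, 31.6 ± 3.97 to 34.3 ± 1.95 CPM (0.12 ± 0.08 on the log2 scale, edgeR adjusted p = 0.258), and passed with trended offsets (0.0235) and gene-end library sizes (0.037). The remaining 4, Uqcr10, Uqcr11, Uqcrc2 and the Rieske protein gene Uqcrfs1, had log2 fold changes from −0.20 (Uqcr11) to −0.05 (Uqcrc2) and did not pass.

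Cycs, which encodes the carrier between complexes III and IV and also triggers caspases when it leaves the mitochondrion, fell. Its single start region, over the promoter printed above, held 63, 64.7, 54.9 and 57.2 CPM at day 7 and 49.2, 48.4, 48.9 and 50.4 CPM at day 21 (−0.28 ± 0.06 on the log2 scale, edgeR adjusted p = 6.39e-04). The 4 day 21 libraries lay closer to each other (SD 0.844 CPM) than the day 7 libraries (SD 4.65 CPM) and below all day 7 libraries.

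In complex IV 5 of the 11 broadly expressed subunits fell and 6 did not pass. Cox4i1, a regulatory subunit that binds ATP, held 39, 37.4, 37.2 and 39.3 CPM at day 7 and 28.3, 32.4, 31.5 and 30.3 CPM at day 21 (−0.32 ± 0.07 on the log2 scale, edgeR adjusted p = 6.88e-04), with no overlap. Its regions lie at one end of the gene and are counted for Emc8 and the overlapping model Gm27021 too. Cox6a1, the liver-type form of subunit 6a, held 39.5, 39.9, 38.2 and 35.4 CPM at day 7 and 29.9, 30.9, 32.7 and 31.6 CPM at day 21 (−0.29 ± 0.07 on the log2 scale, edgeR adjusted p = 0.00236), again without overlap. This call was lost with trended offsets (0.0581). Cox5b, a subunit with a zinc site, went from 30.8 ± 2.26 to 26 ± 1.45 CPM, a change of −0.25 on the log2 scale (edgeR adjusted p = 0.0164), a call lost without day 7 replicate 2 (0.0648), without day 21 replicate 4 (0.0684), with trended offsets (0.182) and with gene-end library sizes (0.134). Cox6c, a small membrane subunit, went from 9.57 ± 1.09 to 7.26 ± 0.37 CPM, a change of −0.39 (edgeR adjusted p = 0.0309). Its call was lost without day 7 replicate 1 (0.1) or 3 (0.0836), without day 21 replicate 1 (0.0683) or 4 (0.063), with windows of 2000 bp (0.158), with trended offsets (0.0511) and with gene-end library sizes (0.118). Cox8a, the broadly expressed form of subunit 8, held 43.5, 48.7, 51.5 and 41.6 CPM at day 7 and 38, 41.9, 43.4 and 38.4 CPM at day 21 (−0.19 ± 0.07 on the log2 scale, edgeR adjusted p = 0.0344). It was the one called member whose libraries overlapped, and its call was lost in 7 of 19 alternatives: without day 7 replicates 2 (0.088) or 3 (0.204), without day 21 replicates 1 (0.0937) or 4 (0.122), with DESeq2 (0.0501), with trended offsets (0.365) and with gene-end library sizes (0.269).

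Among the complex IV genes that did not pass, Cox7a2l, which helps complexes III and IV join into supercomplexes, was higher in mean at day 21. It held 37.2, 32.9, 35.2 and 38 CPM at day 7 and 36.6, 42.1, 43.9 and 39.2 CPM at day 21 (0.17 ± 0.07 on the log2 scale, edgeR adjusted p = 0.0714), and the days overlapped. It passed without day 21 replicate 1 (0.0337), with trended offsets (0.00236) and with gene-end library sizes (0.0051). Cox5a, the partner of Cox5b in the enzyme, had a small narrow region with 2.74, 2.76, 2.87 and 2.8 CPM at day 7 and 2.67, 2.41, 3.01 and 2.28 CPM at day 21 (−0.12 ± 0.27 on the log2 scale, edgeR adjusted p = 0.774). The 4 regions nearest Cox5a outside gene-end windows summed to 34.2 ± 3.51 and 38.8 ± 4.06 CPM (0.17 ± 0.08, edgeR adjusted p = 0.0951). That sum passed without day 7 replicate 4 (0.0357) and without day 21 replicate 1 (0.0284). The value at the ends of Cox5a thus covers little of the counts assigned to it. Cox7b had 7.56, 8.29, 6.49 and 8.82 CPM at day 7 and 7.81, 8.24, 11.3 and 7.36 CPM at day 21 (0.15 ± 0.15 on the log2 scale, edgeR adjusted p = 0.494). Cox6b1 and Cox7c had −0.07 ± 0.10 and −0.06 ± 0.07 on the log2 scale.

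Of the 7 tissue-restricted isoforms of complex IV, 3 (Cox4i2, Cox6b2 and Cox7a1) had a region at an end. Cox6b2, known from testis, held 12.2, 13.4, 12 and 12.9 CPM at day 7 and 9, 7.94, 9.25 and 10.9 CPM at day 21 (−0.43 ± 0.13 on the log2 scale, edgeR adjusted p = 0.00667), without overlap. Its region of 1476 bp covers both ends of the gene and is shared with Fam71e2. The common form Cox6b1 held 16.2, 19.1, 16.4 and 16.2 CPM at day 7 and 14.4, 17, 16.7 and 16 CPM at day 21 (−0.07 ± 0.10 on the log2 scale, edgeR adjusted p = 0.622), with overlap. Cox4i2, an isoform known from lung and from hypoxia, had a faint region with 1.16, 0.85, 0.843 and 0.87 CPM at day 7 and 1.83, 1.99, 0.825 and 1.89 CPM at day 21 (0.81 ± 0.38 on the log2 scale, edgeR adjusted p = 0.0927). Day 21 replicate 3 was at the day 7 level, and without it the gene passed (0.0367). Per kilobase of region Cox4i2 reached 3.93 and 6.88 CPM at day 7 and day 21, where Cox4i1 reached 26.3 and 21.1. Cox7a1, the heart and muscle form, was open at its start, with 34.1, 28.7, 33 and 28 CPM at day 7 and 26.4, 29.6, 30.1 and 28.8 CPM at day 21 (−0.10 ± 0.08 on the log2 scale, edgeR adjusted p = 0.352). The common form Cox7a2 held 3.16, 3.61, 2.19 and 2.24 CPM at day 7 and 3.23, 1.8, 1.41 and 2.49 CPM at day 21 (−0.31 ± 0.29 on the log2 scale, edgeR adjusted p = 0.443) in its one region at an end, centred 922 bp upstream of the annotated start. A stronger region centred 11654 bp inside the annotated gene, counted as distal, had 40.6 ± 2.65 and 36.4 ± 1.38 CPM (−0.16 ± 0.07, edgeR adjusted p = 0.144), so the value at the ends of Cox7a2 covers little of its open chromatin. Cox6a2, Cox7b2 and Cox8b had no region at their ends, while Cox6a1, Cox7b and Cox8a did.

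In the F1 head of ATP synthase 2 of 5 genes fell and 3 did not pass. Atp5a1, the alpha subunit, held 27.9, 31.4, 28.5 and 26.8 CPM at day 7 and 22.9, 20.5, 22.6 and 22.8 CPM at day 21 (−0.36 ± 0.09 on the log2 scale, edgeR adjusted p = 8.48e-04), in a region shared with Haus1. Atp5e, the small epsilon subunit of the central stalk, held 53.5, 55.2, 51.4 and 50.6 CPM at day 7 and 44.4, 45.6, 43.9 and 41.9 CPM at day 21 (−0.26 ± 0.07 on the log2 scale, edgeR adjusted p = 0.00167), in a region shared with Prelid3b. Neither gene's libraries overlapped, and Atp5e missed the threshold with trended offsets (0.0516). Atp5b, the catalytic beta subunit and alpha's partner, had the highest summed level of all members and held 87, 93.4, 90.1 and 90.8 CPM at day 7 and 86.6, 95.5, 95.9 and 88.9 CPM at day 21 (0.02 ± 0.06 on the log2 scale, edgeR adjusted p = 0.788). Its libraries overlapped. Atp5d, the delta subunit, held 11.2, 7.12, 10.7 and 12.4 CPM at day 7 and 8.86, 10.2, 12.3 and 11.2 CPM at day 21 (0.02 ± 0.13 on the log2 scale, edgeR adjusted p = 0.92), with overlap. Atp5c1, the gamma subunit that turns inside the head, went from 59.3 ± 2.17 to 53.9 ± 2.74 CPM (−0.14 ± 0.06 on the log2 scale, edgeR adjusted p = 0.0888), without overlap between the days.

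In the membrane part and stalks of ATP synthase 5 of 11 genes fell and 6 did not pass. Atp5g2, one of the genes for the rotating c-ring, held 36.2, 38.2, 35.9 and 33.9 CPM at day 7 and 25.9, 25.9, 30.8 and 25.8 CPM at day 21 (−0.41 ± 0.08 on the log2 scale, edgeR adjusted p = 5.86e-05), the smallest p among the members. All day 21 libraries lay below day 7, with replicate 3 closest to it. Atp5pb, the b subunit of the stalk that holds the head still, held 46.9, 56.1, 55.5 and 50.3 CPM at day 7 and 41.1, 41.3, 45 and 42.5 CPM at day 21 (−0.29 ± 0.07 on the log2 scale, edgeR adjusted p = 7.13e-04), without overlap, in regions shared with Wdr77. The small subunit gene Atp5mpl went from 24.1 ± 0.952 to 19 ± 1.72 CPM, a change of −0.35 on the log2 scale (edgeR adjusted p = 0.00247). Atp5l, subunit g in the membrane, went from 14.1 ± 2.13 to 10.7 ± 0.723 CPM, a change of −0.38 (edgeR adjusted p = 0.0117), a call lost without day 7 replicate 2 (0.0695) and with gene-end library sizes (0.0665). Atp5j, coupling factor 6 of the stalk, held 87.8, 96.8, 82.7 and 82.5 CPM at day 7 and 75.5, 78.5, 74.5 and 77 CPM at day 21 (−0.19 ± 0.06 on the log2 scale, edgeR adjusted p = 0.00865). Its 1501 bp region is also the start of Gabpa, the ETS factor whose letters were searched above, so both genes carry this one value. Without day 7 replicate 2, the highest, the adjusted p was 0.0659, with trended offsets 0.147 and with gene-end library sizes 0.145. The other c-ring gene with a region, Atp5g3, had −0.15 ± 0.08, and Atp5md held 40.6, 37, 42.8 and 41.1 CPM at day 7 and 37.8, 40.1, 41.6 and 38.9 CPM at day 21 (−0.03 ± 0.07 on the log2 scale, edgeR adjusted p = 0.77). The remaining 4, Atp5h, Atp5j2, Atp5k and Atp5o, had log2 fold changes from −0.13 (Atp5h) to −0.08 (Atp5j2). With windows of 2000 bp Atp5h passed (0.00346).

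**Figure D4:**
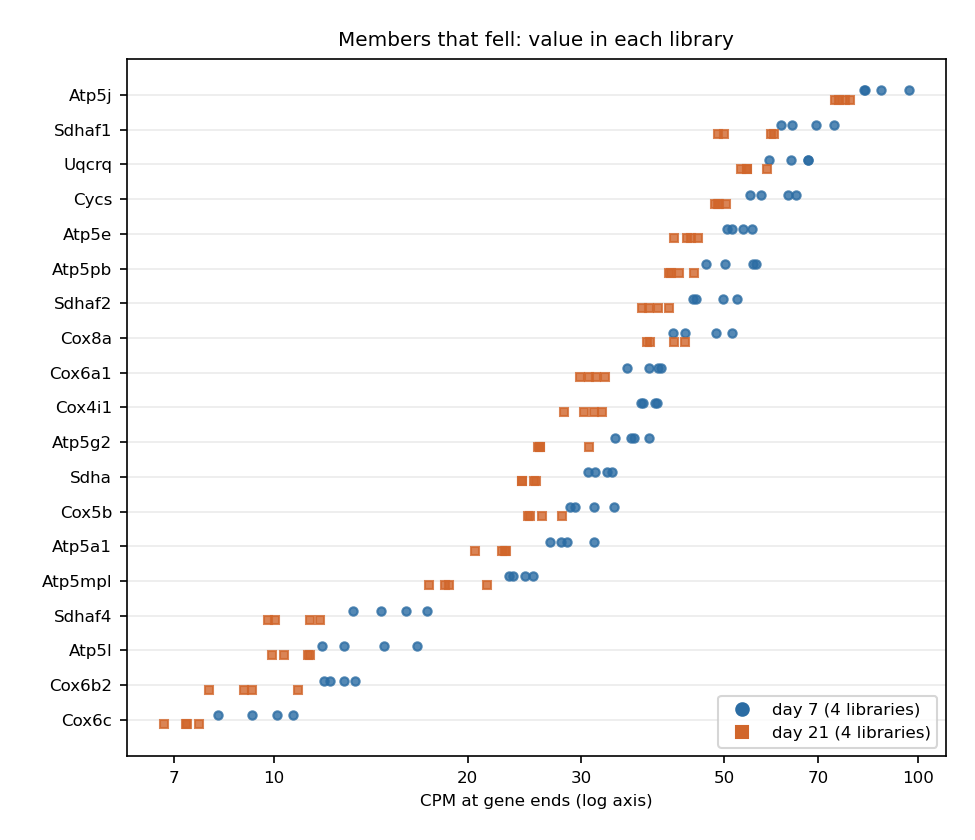
CPM at gene ends (x axis, log scale) in each of the 4 day 7 libraries (blue circles) and the 4 day 21 libraries (orange squares) for the 19 members that fell (y axis, ordered by day 7 mean). In 18 of them all squares lie left of all circles, and in Cox8a they overlap.

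Compared per kilobase of region, the most open members at day 7 were Atp5e (83.2 CPM per kilobase), Atp5h (69.1 CPM per kilobase), Cycs (61 CPM per kilobase), Sdhb (59.6 CPM per kilobase) and Atp5j (58.3). The least open at their ends were Cox6c (9.82), Cox6b2 (8.54), Cox7a2 (6.44) and Cox4i2 (3.93). At both ends of this order there were genes that fell and genes that did not pass: Atp5e and Cycs fell from among the most open and Cox6b2 and Cox6c from among the least open. Members that share a region with a neighbouring gene fell at 9 of 19 (47.4%, median −0.14), and those that share none at 10 of 29 (34.5%, median −0.12). Over all gene ends 24.6% were lower (median −0.09). That share was not split by sharing, and the difference between the 2 sets of members was not tested.

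Taken one region at a time, 63 regions lay at the members' ends (median width 694 bp), and 19 of them fell, 0 rose at an edgeR adjusted p under 0.05 and 44 did not pass. Of these, 4 were higher at an unadjusted p under 0.05, and DESeq2 called 0 higher and 19 lower. Over all single regions at gene ends, 16.6% were lower and 6.64% higher. Within some genes the values of the regions stood apart. At Cox6a1 the region over the start (chromosome 5, 115348595 to 115349341) went from 31 ± 2.35 to 22.8 ± 0.724 CPM (−0.44 ± 0.09, edgeR adjusted p = 8.05e-05). A smaller one centred 1157 bp into the gene had 7.25 ± 0.82 and 8.49 ± 0.74 CPM (0.23 ± 0.15, edgeR adjusted p = 0.294). At Sdhaf1 the region centred 733 bp upstream had −0.65 ± 0.12, the one over the start −0.24 ± 0.08 and the one 650 bp downstream 0.01 ± 0.16. At Cox4i1 the main region had −0.40 ± 0.08 and its weak neighbour 0.62 ± 0.26. For the 12 members with more than 1 region at their ends, the ratio of the leading region to the others was compared between days by an exact two-sided permutation test over the libraries. The lowest values, at Cox6a1, Cox4i1 and Cox6c, were an exact p of 0.0286, the smallest that 4 against 4 can give, and the adjusted p over the 12 was 0.114, so none passed.

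**Figure D5:**
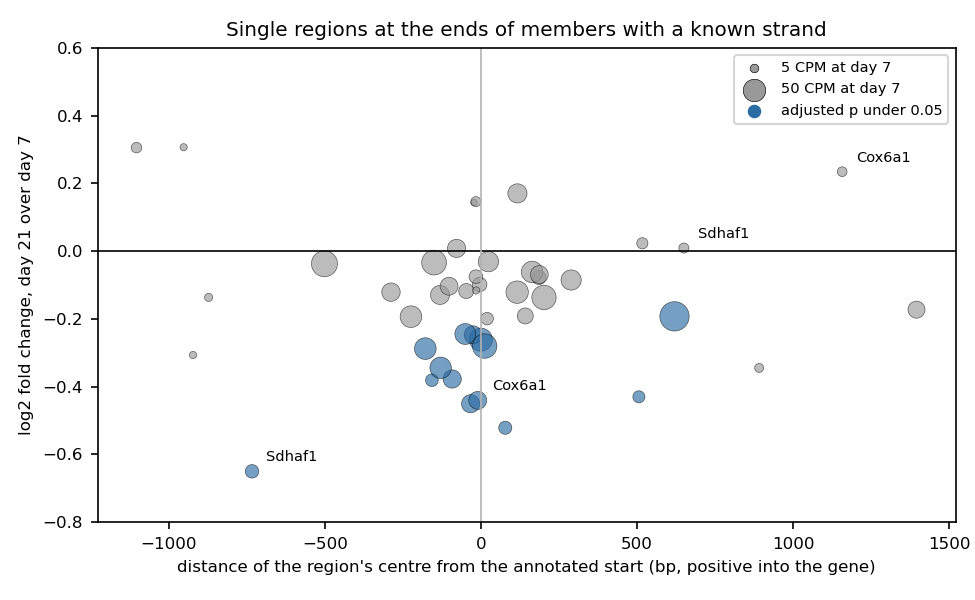
Log2 fold change of single regions, day 21 over day 7 (y axis), against the distance of their centre from the annotated start in bp (x axis), for 46 regions of 38 members with a known strand. Circle area follows the day 7 CPM, and the 14 blue circles have an edgeR adjusted p under 0.05. Most large circles sit within 500 bp of the start and slightly below 0, and the Cox6a1 and Sdhaf1 regions away from the start lie above and below them.

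Away from gene ends the members' regions moved both ways, as distal regions did over all genes. Distal regions were assigned to the nearest gene end within 50 kb, which does not tie them to that gene's control. Of 30 members with such regions 29 were tested: 4 fell (Atp5pb, Cycs, Cox4i1 and Sdhaf2), 2 rose (Cox7c and Cox4i2) and 23 did not pass. Among all distal sums, 11.4% were lower and 18.3% higher, and the medians were −0.07 for the members and 0.04 for all. As single regions, 14 of 116 tested fell and 5 rose, against 8.71% lower and 9.98% higher over all regions outside gene ends. The 12 distal regions of Cycs summed to 96.9, 95.4, 103 and 96.3 CPM at day 7 and 73.4, 78.6, 80.5 and 85.8 CPM at day 21 (−0.30 ± 0.06 on the log2 scale, edgeR adjusted p = 2.88e-05), so Cycs was lower both at its start and around it. The one with the smallest p lay 25.7 kb past the start, outside the gene (chromosome 6, 50540523 to 50541215, −0.69 ± 0.13, edgeR adjusted p = 4.01e-05). Cox4i1 distal regions held 75.3, 65.3, 63 and 68.7 CPM at day 7 and 53.8, 55.5, 55.3 and 54.1 CPM at day 21 (−0.32 ± 0.06 on the log2 scale, edgeR adjusted p = 5.62e-05). Of its 9 distal regions 2 fell, both between Cox4i1 and Irf8, the lineage factor of cDC1s. One (chromosome 8, 120704349 to 120704550), 31.9 kb from an end of Irf8, went from 4.16 ± 0.793 to 0.902 ± 0.372 CPM (−2.27 ± 0.30), the other (chromosome 8, 120701688 to 120702561) had −0.53 ± 0.10. The ends of Irf8 itself went from 54.8 ± 5.91 to 38.2 ± 2.84 CPM (−0.51 ± 0.07).

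The single distal region nearest Atp5pb (chromosome 3, 105940658 to 105941058) lay 18.4 kb past its start and 8.09 kb from I830077J02Rik. That is just beyond the stop end of Atp5pb (105942698). The region held 3.24, 3.19, 3.2 and 3.17 CPM at day 7 and 0.984, 0.481, 0.472 and 1.14 CPM at day 21 (−2.0 ± 0.33 on the log2 scale, edgeR adjusted p = 1.55e-06). The days did not overlap, and the region is faint on both. Cox7c, subunit 7c of complex IV, had −0.06 ± 0.07 at its start, where it did not pass, and rose around it, with 48.3, 39.9, 46.7 and 47.6 CPM at day 7 and 53, 54.6, 55.2 and 56.8 CPM at day 21 (0.26 ± 0.07 on the log2 scale, edgeR adjusted p = 0.00188). The region with most of the gain is 729 kb from the nearest other protein-coding gene, Rasa1. Cox4i2 distal regions, 11 in number, held 164, 145, 153 and 158 CPM at day 7 and 170, 177, 181 and 167 CPM at day 21 (0.16 ± 0.05 on the log2 scale, edgeR adjusted p = 0.00839). The gain lay in a region 29.0 kb from an end of Bcl2l1 (chromosome 2, 152787465 to 152788095, 47.9 ± 4.51 to 63.1 ± 4.15 CPM, 0.39 ± 0.07). Leaving out day 7 replicate 2 ended the Cox4i2 call (0.0519), as trended offsets did (0.141). Sdhaf2 distal regions fell by 0.22 (edgeR adjusted p = 0.0461), a call lost without any of day 7 replicates 1 (0.0808), 2 (0.0877) and 4 (0.123) or day 21 replicates 3 (0.12) and 4 (0.121). Near Atp5o, the stalk subunit that tops the head, 2 regions went opposite ways: one 1723 bp upstream of the start rose by 0.40 ± 0.10 and one 31.0 kb upstream had −1.50 ± 0.35, while its distal sum did not pass (0.0875).

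Other genes of the pathway were read from lists set by gene name. Of 38 assembly factors of complexes III to V, 36 were tested. Of these 16 fell, 0 rose at an edgeR adjusted p under 0.05 and 20 did not pass (median −0.11). At an unadjusted p under 0.05, 0 were higher, and DESeq2 gave 14 lower and 0 higher. The share lower was 44.4%, beside 39.6% of the members and 24.6% of all gene ends. The smallest p values were those of Uqcc2, a chaperone for cytochrome b, which went from 16.5 ± 2.86 to 10.1 ± 0.903 CPM (−0.70 ± 0.12 on the log2 scale, edgeR adjusted p = 7.89e-06), Cmc2, which acts in complex IV assembly (−0.34 ± 0.07), and Lrpprc, which stabilises mitochondrial mRNAs (−0.32 ± 0.07). Among 11 regulators of respiratory genes, 3 fell, 2 rose and 6 did not pass. Its share of falls, 27.3%, is near the 24.6% of all gene ends, and the median of −0.04 stood beside −0.09 over all gene ends, and the single genes are given as values. Tfam, which packages and transcribes mitochondrial DNA, went from 32.3 ± 1.61 to 25.3 ± 2.83 CPM (−0.34 ± 0.08 on the log2 scale, edgeR adjusted p = 0.00111), Gabpa carries the Atp5j value, and Yy1 had −0.17 ± 0.06. The coactivator genes Ppargc1b (26.4 ± 2.11 to 33.4 ± 2.37 CPM, 0.33 ± 0.08, edgeR adjusted p = 0.00124) and Ppargc1a (18.9 ± 1.05 to 23.8 ± 1.21 CPM, 0.32 ± 0.09, edgeR adjusted p = 0.00486), known for raising the output of respiratory genes, rose. Over all gene ends 6.71% were higher, and a link between these 2 genes and the members' values was not tested. Complex I, where electrons from NADH enter the chain, had 17 of 38 tested subunits lower, 0 higher and 21 not passed, with a median of −0.18 (1 higher at an unadjusted p under 0.05, and DESeq2 14 lower and 0 higher). Its share lower was 44.7%, beside 39.6% of the members and 24.6% of all gene ends. The lowest value of complex I, −0.57 at Ndufs7, is close to the −0.52 of Sdhaf4. The difference between complex I and complexes II to V was not tested.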

How the data were processed

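ATAC-seq was measured in 8 libraries of cDC1s. The deposited values are raw counts, 1 column per library over 128057 shared regions (median width 364 bp). The submitters' processing notes name mm10 (GRCm38), MACS2 2.1.0.20150603, bedtools, SAMtools, Picard 1.65 and cutadapt 1.9. The aligner, the read filters, the merging of peaks and any shift for the transposase are not given in the sources used here, nor is the counting base of the coordinates.

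Genes, strands and promoters came from RefSeq tables of GRCm38.p6. Counts were summed per gene over regions within 1000 bp of either end. The 63 member regions were counted once per member. Tests used edgeR 4.0.16 (filterByExpr, TMM factors of the region table, glmQLFit and glmQLFTest, day as the only term) over all 13569 gene ends, 121955 regions or 14486 distal sums, two-sided, with Benjamini-Hochberg adjustment and a threshold of 0.05. The standard error is the log2 fold change divided by the square root of F. DESeq2 1.42.0 and limma 3.58.1 (R 4.3.3) served alternatives, and SciPy 1.17.1 the exact tests, whose permutations were the 70 relabelings. The gene-end fit was also run on simulated counts with the scaling known and with as many rises as falls. That run does not bear on the choice of scaling. Within each role, the 2 smallest and the largest p, the isoform pairs and all called members are named. The within-gene comparison was chosen after seeing the data, with 0.1 CPM added to each value. Members and lists were chosen with earlier results of these data known. One marker list is not reported here.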

Additional observations from a re-analysis of the deposited data

Results flagged for a closer look

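Among 122 groups of 4 libraries (48 members and 6 called distal sums and 7 summed levels, on each day), 10 held a library far from the other 3 in gene-end accessibility, by a rule that chance meets in about 1 group in 20. The highest of their groups were Atp5g2 at day 21 in replicate 3 (30.8 CPM, the others 25.8 to 25.9), Atp5o at day 21 in replicate 3 (21 CPM, the others 17.1 to 17.1), Cox4i2 at day 7 in replicate 1 (1.16 CPM, the others 0.843 to 0.87), Cox6b1 at day 7 in replicate 2 (19.1 CPM, the others 16.2 to 16.4), Uqcr11 at day 21 in replicate 4 (12.3 CPM, the others 11.6 to 11.7), Uqcrb at day 7 in replicate 2 (37.5 CPM, the others 28.8 to 30.1), Uqcrh at day 7 in replicate 3 (72.2 CPM, the others 66.5 to 67.3). The lowest were Atp5a1 at day 21 in replicate 2 (20.5 CPM, the others 22.6 to 22.9), Cox4i2 at day 21 in replicate 3 (0.825 CPM, the others 1.83 to 1.99), Cox7c at day 21 in replicate 3 (40.7 CPM, the others 44.2 to 44.4). Of these genes Atp5a1 and Atp5g2 are called lower, and both keep their call without the library named. Cox4i2 stands out on both days, in the faintest region of the members.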

How the results depend on the processing

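Leaving out 1 library at a time gave 15 to 20 lower and 0 to 1 higher members at gene ends (the 1 higher was Cox4i2 without day 21 replicate 3 and Cox7a2l without day 21 replicate 1), 16 to 20 lower single regions, and 3 to 6 lower and 1 to 3 higher distal sums. Lower members at gene ends numbered 19 with DESeq2 size factors, without the filter, with windows of 500 or 2000 bp, and with the better-covered end alone, 18 with DESeq2's test, and 14 of 38 at the annotated start alone. There were 10 of 31 with unshared regions only, where fewer members have a region, 12 (2 higher) with trended offsets and 13 (2 higher) with gene-end library sizes. Distal sums with trended offsets were lower at 7 and higher at 1. The cause of these shifts was not tested. Log2 ratios of the sums per complex moved with gene-end library sizes and with trended offsets, respectively, to −0.056 and −0.038 for complex II, −0.18 and −0.17 for the assembly factors, −6.80e-04 and 0.011 for complex III, −0.19 and −0.18 for cytochrome c, −0.058 and −0.050 for complex IV, −0.078 and −0.072 for complex V, −0.070 and −0.060 for all members together. Without single libraries they ran from −0.18 to −0.12 for complex II, −0.30 to −0.25 for the assembly factors, −0.11 to −0.065 for complex III, −0.32 to −0.24 for cytochrome c, −0.16 to −0.12 for complex IV, −0.19 to −0.15 for complex V, −0.17 to −0.14 for all members together. With the replicate number as a block, 19 members were lower at gene ends, 20 single regions and 5 distal sums. Deviations of single regions correlated at 0.00411 to 0.00975 between libraries with the same number. Between libraries with different numbers the correlations ran from −0.0112 to 0.0133. Such deviations carry counting noise, so these values cannot settle whether the numbers pair libraries, and the labels do not say. Over all members and alternatives at gene ends, 848 values kept their call, 27 lost it (in 8 genes) and 8 gained it (in 5). Depth limits the faint regions of Cox4i2, Cox5a and Cox7a2, under 4 CPM.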
